A study of Danio rerio with 12 samples.

Results

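Some genes of the zebrafish caudal fin have high mRNA levels in the uncut fin, low levels early after amputation and high levels again in the later regenerate. The 140 genes described here were chosen on their levels in all 12 libraries, from 33737 gene identifiers. Counts scaled to the column total (CPM) were averaged over the 3 libraries of a stage and 1 was added. Stages were then split into high and low at the largest ratio of neighbouring means. A gene qualified when 0 and 10 days post amputation (dpa) were its high stages, every high library lay above every low library and both high means were at least 5 CPM. This held for 1060 identifiers, and the 150 with the largest ratios were taken. Of these, 10 were left out by name and are not described: ptgdsb.1, ptgdsb.2, col17a1a, pcolceb, pmela, mgp, PODN, SOX10, TYR and mbpa.

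The libraries hold polyadenylated RNA of whole caudal fin tissue from adult zebrafish of the AB-Tu strain, 8 to 18 months old, taken at 0 dpa (uncut), 2 dpa, 3 dpa and 10 dpa. No group carries a transgene, a mutation or a drug treatment in the labels. Each stage has 3 libraries, and each library is a pool of 6 fish. How much stump tissue was taken with the regenerate, and whether the same fish gave tissue at more than 1 stage, is stated nowhere in the labels.

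The fin is a fold of skin with bony rays, fibroblast-rich connective tissue, nerves, vessels and pigment cells under a layered epidermis with mucous cells. After amputation a wound epidermis covers the stump, a blastema of proliferating cells forms beneath it, and differentiated tissues are rebuilt from the stump towards the tip as outgrowth proceeds. Loose dermal matrix, pigment cells, myelinated nerves and resident skin immune cells are among the components of the mature fin. In whole tissue, fewer cells of a type and less RNA per cell cannot be told apart.

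Total counts per library ran from 8833337 to 22843743, and all 140 members were among the 16612 genes that passed the filter on low counts. Fin tissue was checked on its own markers. The actinotrichia gene and1 averaged 543 CPM at 0 dpa, 4401 at 2 dpa, 23619 at 3 dpa and 5930 at 10 dpa, and the epidermal keratin krt5 lay between 22628 and 55224 CPM in the stage means. Summed skeletal muscle markers (18 identifiers) reached 64.8 to 146 CPM over all libraries. Levels below are CPM scaled with TMM factors, given per library in the order of replicates 1, 2 and 3, or as mean ± SD over n = 3 pools. On this scale too, every 0 and 10 dpa library of all 140 members lay above every 2 and 3 dpa library.

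The levels that follow, of 0 or 10 dpa beside 2 or 3 dpa, chose the members and are a description without a test. The ratio of high to low stages had a median of 5.68 and ran from 3.94 to 97.7. At the limit, VIT (3.992), si:dkey-65b12.6 (3.967) and cyld2 (3.945) were just inside. The identifiers slc25a55b (3.943), ENSDARG00000070586 (3.943) and adamts2a (3.932) were just outside. The median member had a mean level of 29.4 CPM at 0 dpa, 0.863 CPM at 2 dpa, 1.72 CPM at 3 dpa and 21.99 CPM at 10 dpa. Mean levels at 2 dpa were below 1 CPM for 77 members, and at 3 dpa for 40. Summed over the members, the level was 12006 ± 870 CPM at 0 dpa, 491 ± 37.9 CPM at 2 dpa, 849 ± 240 CPM at 3 dpa and 9266 ± 645 CPM at 10 dpa. Among the 3 dpa libraries the sums were 917, 583 and 1048 CPM, so that replicate 2, the library with the highest total count, was nearest to the 2 dpa libraries (507, 448 and 519 CPM).

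**Figure D1:**
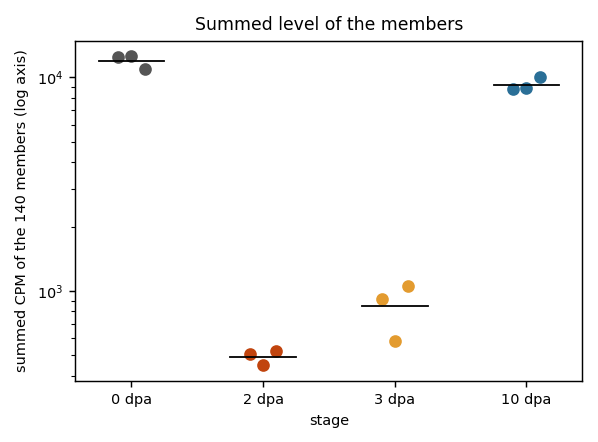
Summed level of the 140 members in CPM (vertical axis, log scale) by stage in dpa (horizontal axis). Points are the 3 pools of a stage and the bars are stage means, 12006 CPM at 0 dpa, 491 at 2 dpa, 849 at 3 dpa and 9266 at 10 dpa. The 3 dpa pools lie between 583 and 1048 CPM.

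The choice was repeated without the 4 libraries of a replicate number, and the chosen genes were read in those libraries. Of 140 genes chosen without replicate 1, 139 had both left-out high libraries above both left-out low ones. The count was 138 of 140 for replicate 2 and 137 of 140 for replicate 3. The share of all genes with this order was not computed, so these counts are a description only. For each gene, the lower left-out high library was divided by the higher left-out low one, after 1 was added to each. The median of this ratio, which is not the rule's ratio of stage means, was 5.27 for replicate 1. It was 5.94 for replicate 2 and 4.97 for replicate 3. The 6 exceptions include the Krüppel-like factor KLF9 and the kinase SIK1. They could not be among the 140 members, because the rule asks every high library to lie above every low one.

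The rule put 0 and 10 dpa on 1 side of the largest gap between stage means, and 2 and 3 dpa on the other, which limits how far the stages of a side can differ. The 10 against 0 dpa and 3 against 2 dpa values are therefore not free of the rule, and the shares over all genes beside them are given for description. Within the high stages, the 10 dpa mean was between 50% and 200% of the 0 dpa mean for 117 members, below 50% for 20 and above 200% for 3, with a median of 80.3%. In edgeR's quasi-likelihood test, adjusted over all genes tested, 11 members were lower at 10 than at 0 dpa, where 2.78% of all genes were and 8.59% of the 908 other tested genes with the same high stages. ENTPD3 and ucmaa were the 2 that were higher, where 6.62% of all genes were. The matrix gene abi3bpa, the WNT inhibitor WIF1 and the granule protein gene SCG3 were among the lower ones. The median log2 change of the members was -0.31, beside 0.04 for all genes tested and -0.36 for those 908. The estimate was below 0 for 98 members. The 3 libraries of 10 dpa lay below all 3 of 0 dpa for 36 members (14.5% of all genes) and above them for 7 (19.4% of all genes). Calls depended on single pools, over all genes as well as among the members. The count of lower members was 5 without replicate 1 of 0 dpa (0.636% of all genes), 5 without replicate 2 of 0 dpa (0.642%), 6 without replicate 2 of 10 dpa (0.996%) and 7 without replicate 3 of 10 dpa (0.811%). The count of higher members was 0 without replicate 1 or 2 of 0 dpa or replicate 2 of 10 dpa, and 1 without replicate 1 or 3 of 10 dpa, replicate 1 or 3 of 2 dpa or replicate 1 of 3 dpa, while 2.202% to 7.03% of all genes were called higher in these fits.

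Within the low stages, 27 members were higher at 3 than at 2 dpa, where 3.28% of all genes were and 3.30% of the 908 other genes with the same high stages. They include the collagen genes COL8A2 and col14a1b, the integrin-like matrix gene ITGBL1, the myostatin gene mstnb and the complement-activating protease gene MASP1. None was lower, where 0.494% of all genes were, and none had an unadjusted p under 0.05 in that direction. DESeq2 called 39 members higher, with 4.76% of all genes, and 0 lower, with 1.38%. The median log2 change was 0.86, beside 0.01 for all genes tested and 0.15 for those 908. The estimate was above 0 for 125 members. The 3 libraries of 3 dpa lay above all 3 of 2 dpa for 48 members (11.8% of all genes) and below them for 0 (6.51% of all genes). The members' levels at 3 dpa remained a median 7.28% of the 0 dpa mean, against 3.58% at 2 dpa.

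The 3 against 2 dpa calls also changed with the libraries in the fit, over all genes as well as among the members. The count was 10 without replicate 3 of 3 dpa (0.947% of all genes) and 15 without replicate 1 of 3 dpa (1.40%). It was 13 without replicate 3 of 2 dpa (0.974%) and 17 without replicate 1 of 2 dpa (1.18%). With only the libraries of 2 and 3 dpa in the fit, 94 members were tested and 2 passed, FNDC1 and ENSDARG00000052631, while 0.196% of all genes were called higher. The median log2 change of the 94 in that fit was 0.97. FNDC1 and ENSDARG00000052631 passed in all 18 settings tried. For COL8A2, ITGBL1, IGSF10, mamdc2b, MASP1, col14a1b, ANTXR1 and ENSDARG00000038267, that fit was the only setting without a call. With no filter on low counts mstnb, WNT11, linc.pou2af1 and si:dkey-251i10.2 did not pass, and with column totals WNT11 and si:ch211-251b21.1 did not.

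**Figure D2:**
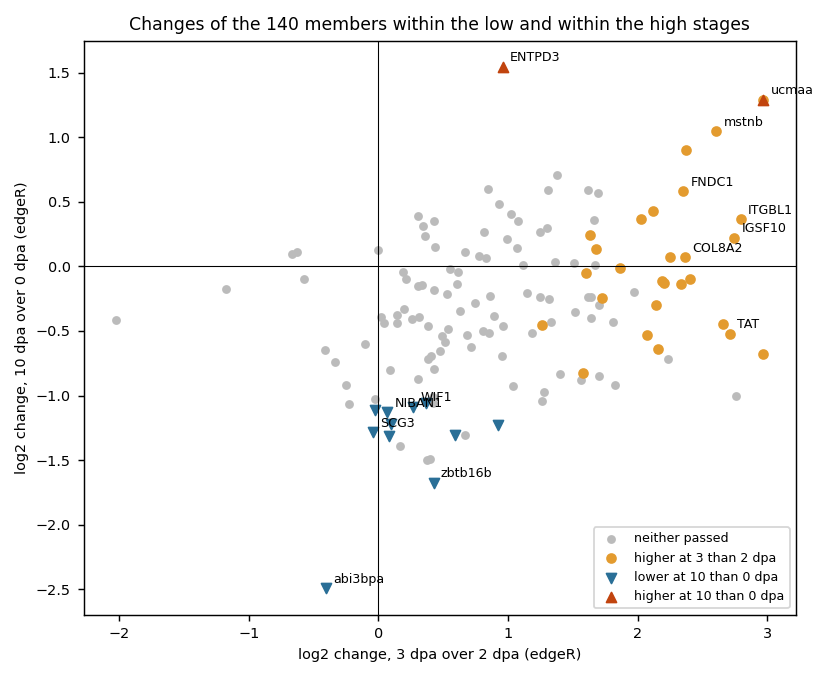
Log2 change of the 140 members between 3 and 2 dpa (horizontal axis) and between 10 and 0 dpa (vertical axis), each point a gene, from edgeR. Orange points are the 27 members higher at 3 dpa, blue triangles the 11 lower at 10 dpa and red triangles the 2 higher at 10 dpa, ucmaa and ENTPD3. Most points lie right of the vertical line, and abi3bpa is the lowest.

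By role, assigned from general knowledge after the values were seen, 102 members fall into 10 groups, and 38 have no symbol or only a clone or project name. Call counts of roles and lists below stand beside these shares. At 3 against 2 dpa 3.28% of all genes were higher and 0.494% lower, and 19.3% and 0% of the members. At 10 against 0 dpa 6.62% of all genes were higher and 2.78% lower, and 1.43% and 7.86% of the members. Whether a role or list differs from these shares was not tested. Symbols in capitals (58 members) follow the human gene and do not say which zebrafish copy is meant, and 22 members share their symbol with another identifier.

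**Figure D3:**
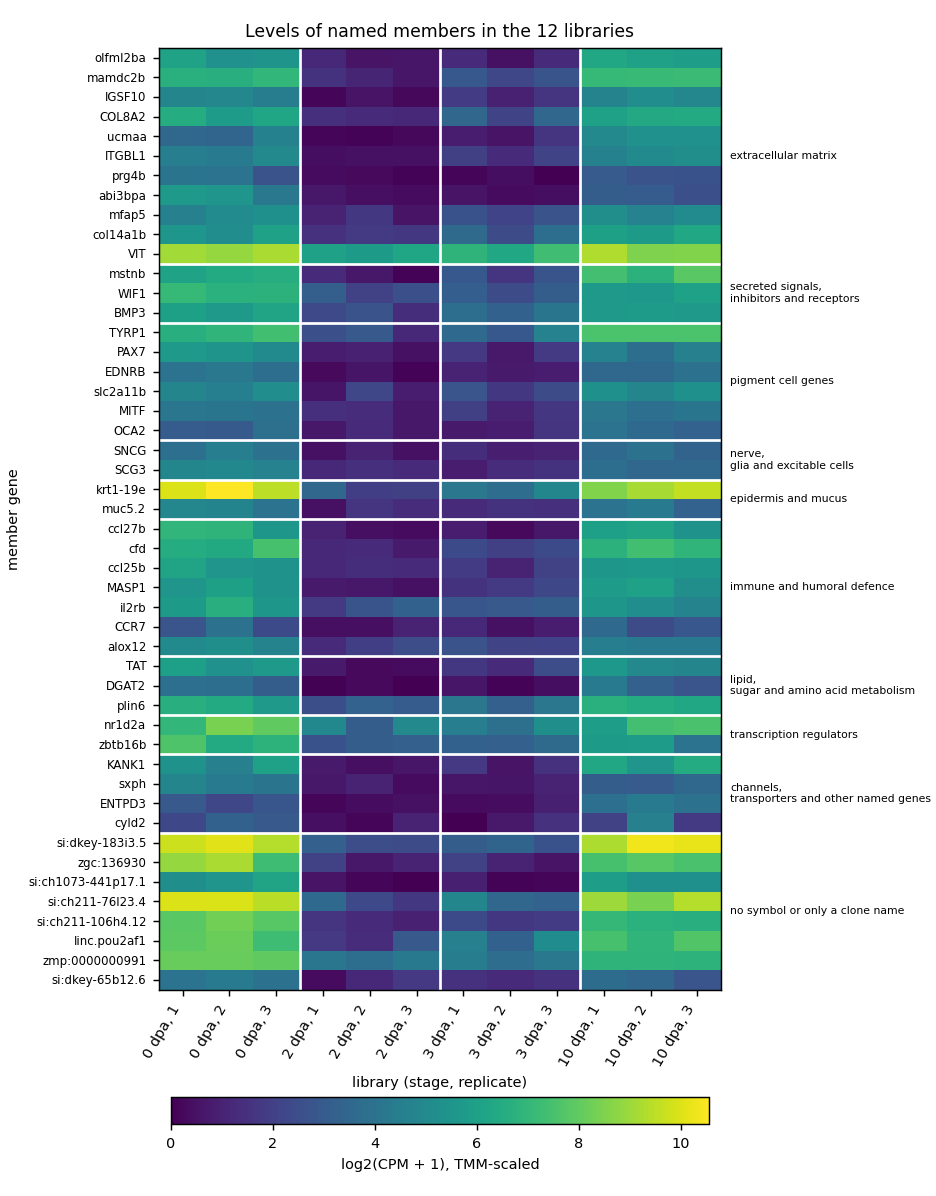
Levels of members named by rule in each library, as log2(CPM + 1) on TMM-scaled CPM, with genes down the page grouped by role and libraries across in the order 0, 2, 3 and 10 dpa. White lines divide stages and roles. The 2 and 3 dpa columns are dark for nearly all genes, with krt1-19e and si:ch211-76l23.4 among the brightest at 0 and 10 dpa.

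Extracellular matrix genes numbered 19. At 3 dpa 9 of them were higher than at 2 dpa and 0 were lower, where 19.3% of all members and 3.28% of all genes were higher. At 10 dpa 1 was higher and 1 lower than at 0 dpa, and the median 10 dpa mean was 105% of the 0 dpa mean. COL8A2, a short-chain collagen of basement membrane networks, had 91.4, 55.6 and 75.5 CPM at 0 dpa, 1.71, 1.46 and 1.25 CPM at 2 dpa, 10.1, 3.43 and 10.1 CPM at 3 dpa and 64.9, 81.7 and 86.8 CPM at 10 dpa. The 3 dpa libraries all lay above the 2 dpa libraries, with replicate 2 the lowest of them, and the test gave a rise at 3 dpa (log2 change 2.37 ± 0.38, adjusted p = 0.00627). Its 10 and 0 dpa libraries overlapped (log2 change 0.07 ± 0.32, adjusted p = 0.913).

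ITGBL1, which encodes a secreted protein with integrin-like repeats, had 21.7, 19.9 and 30.2 CPM at 0 dpa, 0.302, 0.399 and 0.390 CPM at 2 dpa, 2.98, 1.41 and 3.50 CPM at 3 dpa and 24.01, 32.3 and 36.1 CPM at 10 dpa. Its 2 dpa libraries differed by little and all 3 dpa libraries were above them (log2 change 2.80 ± 0.42, adjusted p = 0.00394). These 2 dpa levels rest on 17 counts over 3 libraries. IGSF10, an immunoglobulin-domain matrix gene, had 26.9, 28.9 and 20.8 CPM at 0 dpa, 0.151, 0.465 and 0.156 CPM at 2 dpa, 2.64, 0.968 and 1.98 CPM at 3 dpa and 25.6, 35.1 and 28.6 CPM at 10 dpa. It rose at 3 dpa (log2 change 2.74 ± 0.48, adjusted p = 0.00841) and its 10 dpa and 0 dpa levels overlapped.

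The gene mamdc2b, for a proteoglycan with MAM domains, had 102, 99.3 and 128 CPM at 0 dpa, 1.96, 1.13 and 0.547 CPM at 2 dpa, 6.42, 3.75 and 5.63 CPM at 3 dpa and 135, 143 and 147 CPM at 10 dpa. It rose at 3 dpa (log2 change 2.03 ± 0.34, adjusted p = 0.00692). All 3 of its 10 dpa libraries lay above the 0 dpa libraries, but the difference did not pass (log2 change 0.37 ± 0.27, adjusted p = 0.413). FNDC1, with fibronectin type III domains, had 85.0, 70.8 and 136 CPM at 0 dpa, 3.42, 3.72 and 3.28 CPM at 2 dpa, 20.3, 11.6 and 21.7 CPM at 3 dpa and 155, 121 and 159.7 CPM at 10 dpa. Its 3 dpa libraries were well above a tight set at 2 dpa (log2 change 2.35 ± 0.30, adjusted p = 0.00174), and leaving out any library kept the fold at 4.54 to 5.91.

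The fibril-associated collagen gene col14a1b averaged 48.5 ± 14.5 CPM at 0 dpa, 2.19 ± 0.306 at 2 dpa, 9.67 ± 4.65 at 3 dpa and 65.3 ± 13.3 at 10 dpa, and rose at 3 against 2 dpa (log2 change 2.12 ± 0.38, adjusted p = 0.00899). Likewise ANTXR1 (ENSDARG00000074075), a cell surface receptor that binds matrix and anthrax toxin, averaged 43.5 ± 1.26 CPM at 0 dpa, 1.53 ± 0.851 at 2 dpa, 8.46 ± 2.42 at 3 dpa and 40.7 ± 4.68 at 10 dpa, with a rise at 3 dpa (log2 change 2.40 ± 0.34, adjusted p = 0.00322). The microfibril gene mfap5 had 23.4, 32.7 and 38.0 CPM at 0 dpa, 1.06, 2.26 and 0.468 CPM at 2 dpa, 5.39, 3.31 and 5.47 CPM at 3 dpa and 35.8, 24.4 and 33.2 CPM at 10 dpa. Its 3 dpa libraries lay above those of 2 dpa (log2 change 1.86 ± 0.41, adjusted p = 0.0249). That call was lost without replicate 1 or 3 of either stage, with folds of 2.75 to 5.70 over all fits without 1 library.

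The cartilage and bone matrix gene ucmaa, for a secreted Gla-rich protein, was called in both comparisons. It had 10.9, 10.0 and 24.1 CPM at 0 dpa, 0.151, 0.0665 and 0.156 CPM at 2 dpa, 0.803, 0.484 and 1.98 CPM at 3 dpa and 29.9, 40.0 and 39.3 CPM at 10 dpa. The 10 dpa libraries all exceeded the 0 dpa libraries (log2 change 1.29 ± 0.38, adjusted p = 0.0498), and the 3 dpa libraries all exceeded those of 2 dpa (log2 change 2.97 ± 0.72, adjusted p = 0.0372). Both calls were near the threshold. At 10 against 0 dpa it passed in 4 of the 12 fits without 1 library and at 3 against 2 dpa in 5 of the 12. Its 2 dpa level rests on 6 counts over 3 libraries.

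In the opposite direction, abi3bpa, for an SH3-binding matrix glycoprotein, had 51.8, 43.9 and 17.5 CPM at 0 dpa, 0.603, 0.332 and 0.234 CPM at 2 dpa, 0.459, 0.242 and 0.304 CPM at 3 dpa and 7.74, 7.33 and 4.95 CPM at 10 dpa. The highest 10 dpa library was below the lowest 0 dpa library, though 0 dpa replicate 3 was well below the other 0 dpa libraries. It fell at 10 dpa against 0 dpa (log2 change -2.49 ± 0.36, adjusted p = 0.00196), the largest fall among the members, and the fold decrease was 4.59 to 7.11 in fits without 1 library. A difference between 3 and 2 dpa was not detected for it (log2 change -0.40 ± 0.63, adjusted p = 0.862). The lubricin gene prg4b, for a joint and surface lubricant, averaged 6.02 ± 1.04 CPM at 10 dpa and 12.2 ± 5.87 CPM at 0 dpa, and its libraries at these stages overlapped (log2 change -1.03 ± 0.43, adjusted p = 0.141).

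Of the matrix genes not called in either comparison, olfml2ba had the largest ratio of high to low stages (23.8). It is for a secreted protein with an olfactomedin domain and averaged 50.4 ± 14.9 CPM at 0 dpa, 0.756 ± 0.435 at 2 dpa, 1.09 ± 0.596 at 3 dpa and 66.1 ± 10.16 at 10 dpa. VIT, the von Willebrand A domain gene vitrin, had the highest level of the matrix members at all 4 stages, 536 ± 57.1 CPM at 0 dpa, 64.4 ± 10.6 at 2 dpa, 117 ± 40.1 at 3 dpa and 457 ± 146 at 10 dpa, without correction for gene length. The laminin chain genes LAMB1 and lamb2l, of basement membranes, averaged 76.5 ± 12.0 CPM and 49.95 ± 8.63 CPM at 10 dpa, against 78.7 ± 9.93 CPM and 67.7 ± 10.4 CPM at 0 dpa. CCN2, a matricellular growth factor modulator, averaged 45.2 ± 14.8 CPM at 3 dpa against 23.7 ± 8.81 CPM at 2 dpa (log2 change 0.93 ± 0.37, adjusted p = 0.218). The cartilage collagen gene col9a3 varied between pools, with 2.99, 2.15 and 10.1 CPM at 10 dpa and 18.8, 4.15 and 19.4 CPM at 0 dpa. THSD7A (ENSDARG00000061479) and col15a1b, a basement membrane collagen gene, had estimates of 1.02 and 0.89 on the log2 scale at 3 against 2 dpa, and neither passed.

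The dermal fibroblast and loose matrix list, to which 4 of these members belong, had 41 tested genes. At 3 dpa 14 were higher than at 2 dpa and 0 lower, beside 3.28% and 0.494% of all genes. At 10 dpa 14 were higher than at 0 dpa and 1 lower, beside 6.62% and 2.78% of all genes. The summed level of its 48 identifiers was 4809 to 6980 CPM over the 0 dpa libraries and 5591 to 8180 CPM over the 2 dpa libraries. It was 10047 to 13114 CPM over the 3 dpa libraries and 11528 to 13637 CPM over the 10 dpa libraries. The list as a sum was not low at 2 and 3 dpa, while the members were chosen for low levels there. Its part in the members' rises was not tested. By the same rule, 8 of the 41 were high at 0 and 10 dpa, as were 1060 of all 33737 identifiers. Of the 1060, the 140 members and 908 others were among the 16612 tested genes. List counts are over tested genes, so the share to set beside them is higher than that over all identifiers. Such counts for lists, here and below, repeat the rule that chose the members and are a description without a test. PODN and pcolceb, left out by name, are on this list.

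**Figure D4:**
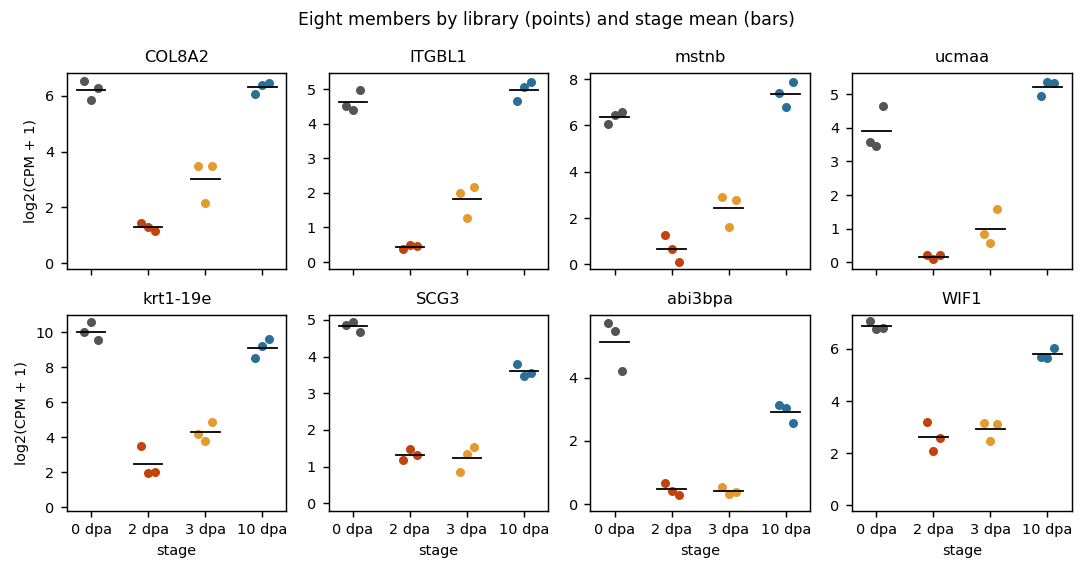
Levels of 8 members as log2(CPM + 1) by stage in dpa, with points for the 3 pools of a stage and bars for the mean. COL8A2, ITGBL1, mstnb and ucmaa have all 3 dpa points above the 2 dpa points, and SCG3, abi3bpa and WIF1 are lower at 10 than at 0 dpa.

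Extracellular proteases numbered 6, and 0 passed in either comparison. The serine protease gene htra4 averaged 36.1 ± 3.82 CPM at 0 dpa, 0.810 ± 0.127 at 2 dpa, 1.81 ± 0.960 at 3 dpa and 36.4 ± 6.88 at 10 dpa. PAPPA2 and ADAMTS8 (ENSDARG00000058252), metalloproteinases of which PAPPA2 cleaves IGF-binding proteins, had estimates of 1.81 ± 0.58 and 2.23 ± 0.59 at 3 against 2 dpa on the log2 scale. The adjusted p was 0.113 for PAPPA2 and 0.0523 for ADAMTS8. PLAU, the urokinase-type plasminogen activator, averaged 16.6 ± 9.32 CPM at 10 dpa and 11.0 ± 3.80 CPM at 0 dpa. The matrix metalloproteinase genes MMP28 and mmp30 had estimates of 0.74 ± 0.47 and -0.58 ± 0.39 at 3 against 2 dpa, of opposite sign.

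Secreted signals, inhibitors and receptors numbered 10, of which 5 were higher at 3 than at 2 dpa and 1 was lower at 10 than at 0 dpa. The estimate at 3 against 2 dpa was above 0 for all 10. The myostatin gene mstnb, a TGF-beta family member known as a brake on muscle growth, had 65.9, 87.4 and 94.0 CPM at 0 dpa, 1.41, 0.598 and 0.0781 CPM at 2 dpa, 6.54, 2.098 and 5.78 CPM at 3 dpa and 169, 109 and 233 CPM at 10 dpa. All 3 dpa libraries were above those of 2 dpa (log2 change 2.61 ± 0.58, adjusted p = 0.0261). The call was lost without replicate 2 or 3 of 2 dpa or replicate 1 or 3 of 3 dpa, and over all fits without 1 library the fold was 4.33 to 12.8. All 10 dpa libraries were above the 0 dpa libraries, without passing (log2 change 1.05 ± 0.44, adjusted p = 0.151).

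BMP3, a TGF-beta family member known to oppose bone-inducing BMPs, had 63.8, 51.9 and 70.9 CPM at 0 dpa, 4.07, 5.52 and 1.64 CPM at 2 dpa, 13.2, 8.67 and 15.96 CPM at 3 dpa and 50.5, 55.6 and 50.9 CPM at 10 dpa. It rose at 3 dpa (log2 change 1.73 ± 0.34, adjusted p = 0.0130), a call lost without replicate 3 of 3 dpa. WNT11, a ligand of the non-canonical WNT pathway, had 65.1, 59.6 and 48.8 CPM at 0 dpa, 1.41, 4.99 and 0.312 CPM at 2 dpa, 14.2, 8.11 and 9.198 CPM at 3 dpa and 56.8, 47.4 and 54.6 CPM at 10 dpa. Its 2 dpa libraries were uneven, and the rise at 3 dpa (log2 change 2.21 ± 0.54, adjusted p = 0.0368) passed in 2 of the 12 fits without 1 library. C1QTNF12, for a secreted C1q-domain hormone-like protein, rose to 2.68 ± 0.916 CPM at 3 dpa, against 0.882 ± 0.341 CPM at 2 dpa (3.03-fold, adjusted p = 0.0223). FLRT2 (ENSDARG00000097299), a guidance and adhesion protein gene, rose to 1.44 ± 0.272 CPM at 3 dpa, against 0.465 ± 0.187 CPM at 2 dpa (log2 change 1.63 ± 0.37, adjusted p = 0.0261). Both calls were lost without replicate 1 or 3 of 2 dpa or replicate 3 of 3 dpa, and that of FLRT2 also without replicate 1 of 3 dpa.

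WIF1, a secreted inhibitor that binds WNT ligands, had 132, 107 and 109 CPM at 0 dpa, 8.25, 3.19 and 4.92 CPM at 2 dpa, 8.03, 4.52 and 7.60 CPM at 3 dpa and 50.9, 48.8 and 64.6 CPM at 10 dpa. The 10 dpa libraries were all below the 0 dpa libraries, and the 3 and 2 dpa libraries overlapped. It fell at 10 dpa (log2 change -1.09 ± 0.29, adjusted p = 0.0337), but the call was lost when any single library of 10 or 0 dpa was left out, with fold decreases of 1.98 to 2.33. The melanocortin receptor gene MC5R (ENSDARG00000031348) averaged 15.8 ± 7.76 CPM at 10 dpa and 38.8 ± 5.75 CPM at 0 dpa without overlap (log2 change -1.30 ± 0.41, adjusted p = 0.0591). The other 3 of the group, the semaphorin gene sema3h, the corticotropin-releasing hormone binding protein gene CRHBP and C1QTNF7, passed in neither comparison.

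On the list of WNT, BMP and hedgehog modulators, 11 of 29 tested genes were higher and 1 lower at 3 than at 2 dpa, and 5 were higher and 2 lower at 10 than at 0 dpa. WIF1 and BMP3 were its 2 members among the 140, and 5 of the 29 were high at 0 and 10 dpa. Another 6 were low at 2 dpa alone. The list's 32 identifiers summed to 1044 to 1200 CPM over the 0 dpa libraries and 595 to 895 CPM over the 2 dpa libraries. The sum was 1288 to 1688 CPM for 3 dpa and 1284 to 1540 CPM for 10 dpa. It was not low at 3 dpa, while the 2 members were chosen for low levels there.

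Pigment cell genes numbered 8, in addition to the pigment genes left out by name. MLPH was the 1 that passed at 3 against 2 dpa, and 0 passed at 10 against 0 dpa, but the estimate at 3 against 2 dpa was above 0 for all 8. TYRP1 (ENSDARG00000056151), an enzyme of melanin synthesis, had 99.7, 120.2 and 162 CPM at 0 dpa, 4.93, 6.71 and 1.33 CPM at 2 dpa, 11.2, 6.58 and 24.9 CPM at 3 dpa and 189, 189.8 and 187 CPM at 10 dpa. Its 10 dpa libraries lay close together and above those of 0 dpa (log2 change 0.57 ± 0.45, adjusted p = 0.448). The highest 2 dpa library overlapped the lowest 3 dpa library (log2 change 1.70 ± 0.49, adjusted p = 0.0778). MITF (ENSDARG00000003732), the transcription factor that specifies melanocytes, averaged 15.96 ± 1.05 CPM at 0 dpa, 1.30 ± 0.600 at 2 dpa, 2.08 ± 0.973 at 3 dpa and 15.7 ± 1.85 at 10 dpa, and its means at 10 and 0 dpa differed by less than either SD. OCA2, a melanosome membrane protein gene, averaged 9.37 ± 3.87 CPM at 0 dpa, 0.875 ± 0.452 at 2 dpa, 1.18 ± 0.821 at 3 dpa and 11.9 ± 3.13 at 10 dpa.

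MLPH, the adaptor that links melanosomes to a myosin motor, had 76.0, 74.6 and 49.4 CPM at 0 dpa, 1.31, 1.80 and 0.625 CPM at 2 dpa, 4.36, 2.46 and 4.79 CPM at 3 dpa and 41.5, 31.2 and 40.4 CPM at 10 dpa. It rose at 3 dpa (log2 change 1.58 ± 0.36, adjusted p = 0.0268), a call lost without replicate 1 or 3 of either stage. Its 10 dpa libraries were below those of 0 dpa without passing (log2 change -0.83 ± 0.29, adjusted p = 0.0872). PAX7, a transcription factor of the xanthophore lineage in zebrafish, averaged 41.5 ± 9.84 CPM at 0 dpa, 0.692 ± 0.276 at 2 dpa, 1.83 ± 1.03 at 3 dpa and 20.2 ± 6.34 at 10 dpa, and its 10 dpa libraries were also all below those of 0 dpa (log2 change -1.05 ± 0.37, adjusted p = 0.0918). The xanthophore transporter gene slc2a11b averaged 28.1 ± 6.14 CPM at 0 dpa, 1.67 ± 1.78 at 2 dpa, 4.20 ± 1.84 at 3 dpa and 34.5 ± 6.64 at 10 dpa. SPR (ENSDARG00000058553), sepiapterin reductase of pteridine synthesis, averaged 8.22 ± 3.44 CPM at 10 dpa and 10.1 ± 2.84 CPM at 0 dpa. EDNRB (ENSDARG00000089334), an endothelin receptor of pigment cells, had 15.1, 17.6 and 13.1 CPM at 0 dpa, 0.201, 0.532 and 0.0781 CPM at 2 dpa, 1.03, 0.686 and 0.760 CPM at 3 dpa and 10.9, 11.0 and 14.2 CPM at 10 dpa, with no overlap between 3 and 2 dpa (log2 change 1.52 ± 0.47, adjusted p = 0.0995).

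Of 16 tested genes on the melanophore list, 9 were high at 0 and 10 dpa by the rule, and 2 were higher at 3 than at 2 dpa. At 10 against 0 dpa 0 were higher and 1 lower. The list holds 3 of the 140 members, and also pmela, SOX10 and TYR, which were left out by name. The summed level of its 18 identifiers was 511 to 620 CPM over the 10 dpa libraries and 495 to 604 CPM over the 0 dpa libraries. It was 62.6 to 123.1 CPM over the 3 dpa libraries and 66.0 to 85.6 CPM over the 2 dpa libraries. The xanthophore list had 6 of 10 tested genes with the same high stages. Its summed level was 553 to 646 CPM over the 0 dpa libraries and 336 to 432 CPM over the 2 dpa libraries. It was 293 to 306 CPM over the 3 dpa libraries and 433 to 454 CPM over the 10 dpa libraries.

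Genes of nerve, glia and excitable cells numbered 8. At 3 against 2 dpa 0 passed, and SCG3 was the 1 that passed at 10 against 0 dpa. SNCG, gamma-synuclein of peripheral neurons, averaged 16.8 ± 4.37 CPM at 0 dpa, 0.619 ± 0.385 at 2 dpa, 1.17 ± 0.391 at 3 dpa and 11.72 ± 2.90 at 10 dpa. GPM6A (ENSDARG00000004621), a neuronal membrane glycoprotein gene, averaged 31.9 ± 6.64 CPM at 0 dpa, 0.634 ± 0.416 at 2 dpa, 1.55 ± 0.759 at 3 dpa and 22.3 ± 5.37 at 10 dpa. SLC6A4, the serotonin transporter, averaged 7.24 ± 3.46 CPM at 3 dpa and 2.94 ± 1.07 CPM at 2 dpa (log2 change 1.24 ± 0.36, adjusted p = 0.0787).

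SCG3, a sorting protein of secretory granules in neuroendocrine cells, had 28.0, 29.6 and 24.6 CPM at 0 dpa, 1.26, 1.80 and 1.48 CPM at 2 dpa, 0.803, 1.53 and 1.90 CPM at 3 dpa and 13.0, 10.1 and 10.7 CPM at 10 dpa. Its 10 dpa libraries were tightly grouped below the 0 dpa libraries, and the fall at 10 dpa (log2 change -1.28 ± 0.24, adjusted p = 0.00667) passed in all 18 settings. A difference between 3 and 2 dpa was not detected (log2 change -0.04 ± 0.30, adjusted p = 0.976). The prion protein paralog prnpb averaged 12.2 ± 1.36 CPM at 10 dpa and 25.4 ± 2.79 CPM at 0 dpa without overlap (log2 change -1.06 ± 0.36, adjusted p = 0.0807). The sodium channel gene scn4ab, of excitable cells, was above its 0 dpa libraries in 2 of 3 libraries at 10 dpa, with 26.3, 32.1 and 36.7 CPM at 10 dpa and 25.96, 21.9 and 26.4 CPM at 0 dpa. LRRC4 (ENSDARG00000069402), a synaptic adhesion protein gene, passed in neither comparison.

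On the Schwann cell and myelin list, 5 of 16 tested genes were high at 0 and 10 dpa, and its 21 identifiers summed to 217 to 252 CPM over the 10 dpa libraries and 270 to 306 CPM over the 0 dpa libraries. The sum was 111 to 146 CPM over the 2 dpa libraries and 108 to 113 CPM over the 3 dpa libraries. This list holds SOX10 and mbpa, which were left out by name. On the neuron and sensory axon list 2 of 7 tested genes had the same high stages, and 0 passed in either comparison. Its 20 identifiers, most of them not tested, summed to between 39.4 and 51.7 CPM in the uncut fin. The range was 30.1 to 43.1 CPM for 2 dpa, 33.5 to 39.3 CPM for 3 dpa and 42.6 to 57.9 CPM for 10 dpa. SNCG, its 1 gene among the members, was chosen for low levels at 2 and 3 dpa, so its course does not stand for the list.

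Epidermis and mucus genes were 3, and 0 passed in either comparison. Their 3 dpa means were a median 1.76% of the 0 dpa means, and their 10 dpa means a median 52.9%. The type I keratin gene krt1-19e had 1017, 1508 and 734 CPM at 0 dpa, 10.1, 2.93 and 2.97 CPM at 2 dpa, 17.1, 12.9 and 27.5 CPM at 3 dpa and 371, 586 and 766 CPM at 10 dpa. All 3 dpa libraries were above those of 2 dpa, just missing the threshold (log2 change 1.82 ± 0.48, adjusted p = 0.0512), and the 10 and 0 dpa libraries overlapped (log2 change -0.92 ± 0.45, adjusted p = 0.209). The gel-forming mucin gene muc5.2, of mucous cells, averaged 23.2 ± 6.83 CPM at 0 dpa, 1.32 ± 0.823 at 2 dpa, 1.66 ± 0.280 at 3 dpa and 14.3 ± 4.86 at 10 dpa. The forkhead gene foxn1, which drives differentiation of skin and thymus epithelium in mammals, had 9.66, 23.1 and 13.7 CPM at 0 dpa, 0.101, 0 and 0.0781 CPM at 2 dpa, 0.229, 0.0807 and 0 CPM at 3 dpa and 7.01, 6.98 and 9.19 CPM at 10 dpa. All its 10 dpa libraries were below those of 0 dpa, without passing (log2 change -1.01 ± 0.37, adjusted p = 0.0966). On the goblet and mucous cell list, 5 of 9 tested genes were high at 0 and 10 dpa. The superficial and stratified epidermis list had 5 such genes of 25 tested. The basal epidermis and hemidesmosome list had 4 of 21, and 6 high at 2 and 3 dpa. High at 2 and 3 dpa were 1081 of all 33737 identifiers, of which 16612 were tested. The superficial list summed to between 72705 and 94958 CPM in the uncut fin. The range was 49743 to 80804 CPM for 2 dpa, 36650 to 36995 CPM for 3 dpa and 58440 to 68534 CPM for 10 dpa. The 3 members were chosen for low levels at 2 and 3 dpa, so their course does not stand for that list.

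Immune and humoral defence genes numbered 10, with 2 higher at 3 than at 2 dpa and 0 called at 10 against 0 dpa. MASP1, a protease of the lectin pathway of complement, had 43.9, 63.4 and 40.8 CPM at 0 dpa, 0.704, 0.598 and 0.390 CPM at 2 dpa, 1.95, 2.46 and 3.88 CPM at 3 dpa and 53.9, 64.8 and 36.5 CPM at 10 dpa. It rose at 3 dpa without overlap (log2 change 2.25 ± 0.37, adjusted p = 0.00692), and its 10 and 0 dpa libraries overlapped (log2 change 0.07 ± 0.27, adjusted p = 0.894). The complement factor D gene cfd, a protease of the alternative pathway, had 91.3, 83.9 and 181 CPM at 0 dpa, 1.26, 1.46 and 0.703 CPM at 2 dpa, 4.13, 3.03 and 4.18 CPM at 3 dpa and 108, 164 and 118 CPM at 10 dpa. It too rose at 3 dpa (log2 change 1.68 ± 0.37, adjusted p = 0.0248), a call lost without replicate 1 or 3 of either stage.

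The chemokine gene ccl27b, whose mammalian counterpart draws T cells to skin, had 124, 116 and 47.4 CPM at 0 dpa, 1.06, 0.332 and 0.234 CPM at 2 dpa, 0.803, 0.202 and 0.608 CPM at 3 dpa and 60.8, 70.4 and 41.1 CPM at 10 dpa. The 3 and 2 dpa libraries overlapped (log2 change -0.34 ± 0.70, adjusted p = 0.901). The chemokine gene ccl25b averaged 52.1 ± 15.5 CPM at 0 dpa, 1.44 ± 0.147 at 2 dpa, 2.28 ± 1.13 at 3 dpa and 47.4 ± 0.842 at 10 dpa, and its 10 dpa libraries spread little. Another chemokine gene, ccl19b, and CCR7, the receptor for such ligands in mammals, averaged 7.30 ± 0.757 CPM and 7.30 ± 3.45 CPM at 10 dpa, against 6.93 ± 3.13 CPM and 8.26 ± 5.70 CPM at 0 dpa. The interleukin 2 receptor chain gene il2rb averaged 66.0 ± 27.6 CPM at 0 dpa, 5.62 ± 3.14 at 2 dpa, 6.83 ± 0.761 at 3 dpa and 35.9 ± 10.6 at 10 dpa, with all its 10 dpa libraries below those of 0 dpa (log2 change -0.88 ± 0.37, adjusted p = 0.152). The lipoxygenase gene alox12 averaged 20.2 ± 1.44 CPM at 10 dpa and 31.8 ± 6.26 CPM at 0 dpa, also without overlap (log2 change -0.66 ± 0.31, adjusted p = 0.198). The perforin gene prf1.6 and the leukotriene receptor gene CYSLTR1 passed in neither comparison.

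MASP1 and cfd are on the complement and humoral defence list, where they were the 2 of 9 tested genes high at 0 and 10 dpa. At 3 against 2 dpa 3 were higher and 0 lower, and at 10 against 0 dpa 0 were higher and 2 lower. Its 21 identifiers summed to 420 to 473 CPM over the 0 dpa libraries and 29.6 to 147 CPM over the 2 dpa libraries. The sum was 263 to 387 CPM for 3 dpa and 325 to 384 CPM for 10 dpa. The course of the 2 members does not stand for the list. Of the 15 tested genes on the chemokine list 3 were high at 0 and 10 dpa, and of the 16 on the T cell and NK cell list 4 were. For the T cell list, 2 were higher at 3 than at 2 dpa and 1 was higher at 10 than at 0 dpa. Its summed level was 481 to 734 CPM over the 0 dpa libraries and 336 to 494 CPM over the 2 dpa libraries. It was 463 to 668 CPM over the 3 dpa libraries and 435 to 655 CPM over the 10 dpa libraries.

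Genes of lipid, sugar and amino acid metabolism numbered 11, with 2 higher at 3 than at 2 dpa and 1 lower at 10 than at 0 dpa. TAT, tyrosine aminotransferase of tyrosine breakdown, had 60.7, 39.7 and 51.0 CPM at 0 dpa, 0.704, 0.199 and 0.234 CPM at 2 dpa, 2.29, 1.45 and 4.56 CPM at 3 dpa and 47.9, 30.7 and 26.7 CPM at 10 dpa. It rose at 3 dpa (log2 change 2.71 ± 0.53, adjusted p = 0.0130), a call lost without replicate 3 of either stage. GYG1 (ENSDARG00000059391), glycogenin, the primer of glycogen synthesis, rose to 11.9 ± 5.89 CPM at 3 dpa, against 2.59 ± 1.11 CPM at 2 dpa (log2 change 2.15 ± 0.41, adjusted p = 0.0125), a call lost in the same fits. PPP1R3C (ENSDARG00000014554), a subunit that targets a phosphatase to glycogen, had 6.86, 5.35 and 9.19 CPM at 10 dpa and 13.3, 21.9 and 10.6 CPM at 0 dpa. It fell at 10 dpa near the threshold (log2 change -1.11 ± 0.32, adjusted p = 0.0466), and passed in 4 of the 12 fits without 1 library.

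The triglyceride synthesis gene DGAT2 averaged 11.3 ± 3.26 CPM at 0 dpa, 0.0832 ± 0.104 at 2 dpa, 0.319 ± 0.247 at 3 dpa and 11.5 ± 7.69 at 10 dpa, with 4 counts over the 2 dpa libraries. BSCL2 (ENSDARG00000025912), seipin of lipid droplet formation, averaged 69.1 ± 14.6 CPM at 0 dpa, 1.66 ± 1.68 at 2 dpa, 3.90 ± 2.55 at 3 dpa and 59.8 ± 14.8 at 10 dpa. The lipid droplet coat gene plin6 averaged 78.1 ± 24.6 CPM at 0 dpa, 7.10 ± 2.103 at 2 dpa, 14.2 ± 4.90 at 3 dpa and 90.6 ± 11.8 at 10 dpa, and its 3 and 2 dpa libraries overlapped (log2 change 0.99 ± 0.32, adjusted p = 0.118). The fatty acid elongase gene ELOVL3 averaged 34.8 ± 17.1 CPM at 10 dpa and 43.8 ± 6.56 CPM at 0 dpa. The acyltransferase-like gene oacyl had all its 3 dpa libraries above those of 2 dpa without passing (log2 change 2.76 ± 0.76, adjusted p = 0.0635). The glutathione peroxidase gene gpx3, the sulfotransferase gene GAL3ST1 (ENSDARG00000062711) of glycolipid sulfation, and the sialic acid hydroxylase gene cmah passed in neither comparison. DGAT2 and plin6 are on the lipid storage and lipoproteins list, where 3 of 19 tested genes were high at 0 and 10 dpa. The list as a sum was highest at 2 and 3 dpa, while these members were chosen for low levels there. Its 28 identifiers summed to between 3121 and 4302 CPM in the uncut fin. The range was 6832 to 12197 CPM for 2 dpa, 7675 to 10790 CPM for 3 dpa and 2164 to 3712 CPM for 10 dpa.

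Transcription regulators numbered 7. At 3 against 2 dpa 0 passed, 1 was lower at 10 than at 0 dpa, and the median 10 dpa mean was 57.3% of the 0 dpa mean. The BTB zinc finger gene zbtb16b had 203, 85.9 and 113 CPM at 0 dpa, 5.33, 7.58 and 8.51 CPM at 2 dpa, 8.60, 8.55 and 11.5 CPM at 3 dpa and 53.6, 56.7 and 15.2 CPM at 10 dpa. Its 10 dpa libraries were below those of 0 dpa, with replicate 3 the lowest, and it fell at 10 dpa (log2 change -1.67 ± 0.42, adjusted p = 0.0246). That call was lost without replicate 1 of 0 dpa, without replicate 3 of 10 dpa, with only the 10 and 0 dpa libraries in the fit and with no filter on low counts. Its relative ZBTB16 had 29.9, 22.7 and 12.3 CPM at 10 dpa and 60.7, 14.9 and 23.0 CPM at 0 dpa, which overlapped (log2 change -0.60 ± 0.42, adjusted p = 0.385).

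The nuclear receptor gene nr1d2a, a repressor in the circadian clock, had 127, 341 and 249 CPM at 0 dpa, 29.4, 7.78 and 30.6 CPM at 2 dpa, 21.7, 13.9 and 36.9 CPM at 3 dpa and 57.9, 169 and 184 CPM at 10 dpa. Its libraries were uneven within every stage, and neither comparison passed. TFAP2E, a transcription factor of the AP-2 family, averaged 32.3 ± 2.64 CPM at 0 dpa, 0.420 ± 0.274 at 2 dpa, 1.01 ± 0.675 at 3 dpa and 17.05 ± 5.80 at 10 dpa. The zinc finger genes snai3 and klf6b averaged 5.40 ± 2.92 CPM and 6.48 ± 3.30 CPM at 10 dpa, against 14.0 ± 7.34 CPM and 9.17 ± 3.26 CPM at 0 dpa. AUTS2 (ENSDARG00000020946), a regulator of neural gene transcription in mammals, passed in neither comparison.

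The 20 channels, transporters and other named genes included 1 higher at 3 than at 2 dpa, and 1 higher and 3 lower at 10 than at 0 dpa. ENTPD3, an ectonucleotidase that breaks down extracellular ATP, had 6.63, 3.80 and 6.04 CPM at 0 dpa, 0.101, 0.266 and 0.390 CPM at 2 dpa, 0.229, 0.282 and 0.912 CPM at 3 dpa and 13.5, 19.9 and 14.6 CPM at 10 dpa. Its 10 dpa libraries were all above the 0 dpa libraries, and it rose at 10 dpa (log2 change 1.54 ± 0.37, adjusted p = 0.0198). This call was lost without replicate 1 or 2 of 0 dpa or replicate 2 of 10 dpa, with folds of 2.52 to 3.27 over the fits without 1 library. MON1B (ENSDARG00000035686), of endosome maturation, rose to 1.48 ± 0.661 CPM at 3 dpa, against 0.324 ± 0.156 CPM at 2 dpa (log2 change 2.07 ± 0.46, adjusted p = 0.0262), a call lost without replicate 1 or 3 of either stage.

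The stress-response gene NIBAN1 (ENSDARG00000042055) had 486, 522 and 371 CPM at 0 dpa, 44.4, 37.8 and 48.9 CPM at 2 dpa, 41.1, 38.4 and 57.8 CPM at 3 dpa and 220.0, 245 and 166 CPM at 10 dpa. Its 10 dpa libraries were all below those of 0 dpa, and the fall at 10 dpa (log2 change -1.13 ± 0.23, adjusted p = 0.00904) passed in all 18 settings. The saxiphilin gene sxph, for a transferrin-like binding protein known from frogs, had 7.59, 7.21 and 10.8 CPM at 10 dpa and 27.4, 20.3 and 15.8 CPM at 0 dpa. It fell at 10 dpa (log2 change -1.32 ± 0.34, adjusted p = 0.0278), a call lost without replicate 1 or 2 of either stage. The gene agfg2, for an ArfGAP-domain protein, fell to 38.2 ± 8.19 CPM at 10 dpa, against 79.3 ± 17.3 CPM at 0 dpa (log2 change -1.06 ± 0.24, adjusted p = 0.0170), a call lost without replicate 1 or 2 of 0 dpa or replicate 2 of 10 dpa. KANK1 (ENSDARG00000060584), a cytoskeletal adaptor near focal adhesions, averaged 43.4 ± 20.9 CPM at 0 dpa, 0.528 ± 0.186 at 2 dpa, 1.57 ± 0.987 at 3 dpa and 70.7 ± 23.0 at 10 dpa, and its 10 and 0 dpa libraries overlapped. The gap junction genes gjc4a.2 and GJA5 (ENSDARG00000069450) averaged 8.48 ± 0.782 CPM and 5.53 ± 0.602 CPM at 10 dpa, against 12.7 ± 2.24 CPM and 6.51 ± 1.37 CPM at 0 dpa. In cyld2, at the limit of 150, 10 dpa replicate 2 stood apart with 3.14, 23.0 and 2.48 CPM over the 3 libraries.

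**Figure D5:**
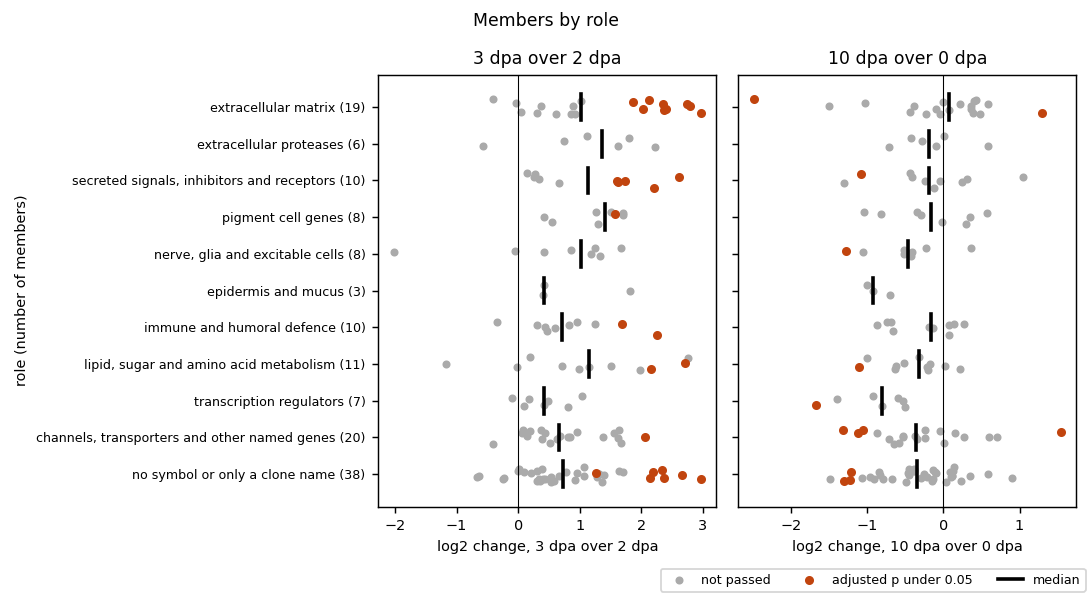
Log2 change of each member at 3 against 2 dpa (left) and at 10 against 0 dpa (right), by role with the number of members in brackets. Points are genes, red where the edgeR adjusted p was under 0.05, and black bars are group medians. Roles were assigned after the values were seen, so the groups are a description. The matrix group has 9 red points at 3 against 2 dpa and a median of 0.07 at 10 against 0 dpa, while the epidermal and transcription regulator medians at 10 against 0 dpa are -0.92 and -0.80.

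The 38 members with no symbol (18) or only a clone or project name (20) include those with the largest ratios. No role is given for them, and 7 were higher at 3 than at 2 dpa and 3 lower at 10 than at 0 dpa. The largest ratio, 97.7, was that of si:dkey-183i3.5, with 852, 1094 and 670.2 CPM at 0 dpa, 8.50, 4.59 and 4.45 CPM at 2 dpa, 7.69, 9.48 and 5.40 CPM at 3 dpa and 620.2, 1276 and 1179 CPM at 10 dpa. It was at a mean of 0.862% of the 0 dpa level at 3 dpa and 118% at 10 dpa, and passed in neither comparison. Next in rank, zgc:136930 (ratio 77.3), had 469, 599.8 and 156 CPM at 0 dpa, 3.07, 0.598 and 1.09 CPM at 2 dpa, 3.21, 1.01 and 0.456 CPM at 3 dpa and 176, 226 and 184 CPM at 10 dpa. Its replicate 3 at 0 dpa was below every 10 dpa library, so that these stages overlapped (log2 change -1.06 ± 0.54, adjusted p = 0.225). ENSDARG00000077505 had the highest 0 dpa level of all members, 1377 ± 340.1 CPM at 0 dpa, 14.3 ± 2.43 at 2 dpa, 28.1 ± 7.21 at 3 dpa and 999 ± 172 at 10 dpa.

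Another 3 clone-named members had large ratios: si:ch1073-441p17.1 (34.5), si:ch211-76l23.4 (31.4) and si:ch211-106h4.12 (28.5). The last had 129, 107 and 96.3 CPM at 10 dpa and 229, 319 and 225 CPM at 0 dpa, and fell at 10 dpa (log2 change -1.22 ± 0.26, adjusted p = 0.0123), a call lost without replicate 2 of 0 dpa or replicate 3 of 10 dpa. Much tighter was ENSDARG00000090346, which has a project name alone, with 274, 277 and 252 CPM at 0 dpa, 16.7, 13.2 and 18.4 CPM at 2 dpa, 21.0, 12.9 and 17.9 CPM at 3 dpa and 117, 117 and 111 CPM at 10 dpa. It fell at 10 dpa (log2 change -1.22 ± 0.20, adjusted p = 0.00347) in all 18 settings. ENSDARG00000096360 was the other one that fell (log2 change -1.31 ± 0.32, adjusted p = 0.0233), a call lost without replicate 1 or 2 of 0 dpa or replicate 2 or 3 of 10 dpa.

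Among those higher at 3 dpa, linc.pou2af1, by its name a long intergenic non-coding RNA, had 241, 289 and 154 CPM at 0 dpa, 2.36, 1.53 and 6.64 CPM at 2 dpa, 23.4, 8.59 and 33.9 CPM at 3 dpa and 177, 118 and 207 CPM at 10 dpa. Its 3 dpa libraries were uneven but all above those of 2 dpa (log2 change 2.66 ± 0.54, adjusted p = 0.0162), and the call was lost without replicate 1 of 2 dpa or replicate 3 of 3 dpa. ENSDARG00000052631 had 10.1, 11.0 and 11.098 CPM at 3 dpa and 3.07, 2.73 and 1.41 CPM at 2 dpa (log2 change 2.14 ± 0.31, adjusted p = 0.00332). The largest estimate in the group belonged to ENSDARG00000041008 (log2 change 2.97 ± 0.72, adjusted p = 0.0366), on 7 counts at 2 dpa, and it passed in 5 of the 12 fits without 1 library. The other 4, si:dkey-238o13.4, ENSDARG00000038267, si:dkey-251i10.2 and si:ch211-251b21.1, rose by 2.37, 2.34, 2.18 and 1.26 on the log2 scale. Of these, si:ch211-251b21.1 passed in 2 of the 12 fits without 1 library.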

How the data were processed

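Polyadenylated RNA was sequenced on a SOLiD Wildfire instrument from libraries made with Lexogen's SENSE mRNA kit, per the labels' protocols. The authors deposited raw counts per Ensembl gene identifier, 1 column for each of the 12 libraries. Each sample's labels quote its column. The sources used here do not give the aligner, counting program, strand use or genome build. Counts of near-identical copies, and of genes that overlap or lie antisense, are for this reason uncertain. A reference table gave symbols for 21939 of 33737 identifiers (65.0%).

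Members were chosen by the rule stated in the report. The 150 ratios were taken before genes were left out by name, and the minimum of 5 CPM was applied before 1 was added. The members, the 32 gene lists and the choice of genes named were made with earlier results of these data known, and roles were assigned after values were seen. Named genes were members with a symbol: the 12 largest ratios, the 6 largest rises and falls that passed in each comparison, up to 5 from each list, and the 3 on either side of the limit. Of these, 1 member is not reported here. Other members were named to complete their role group, after their values were seen. The group of channels, transporters and other named genes was not completed, so the genes named from it are in part a selection.

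Counts were tested with edgeR (version 4.0.16, R version 4.3.3): genes were filtered with filterByExpr (at least 10 counts), scaled with TMM factors and tested by robust quasi-likelihood in 1 model of stage over the 12 libraries. The filter kept 16612 genes, and the biological coefficient of variation was 26.9%. Passing means a Benjamini-Hochberg adjusted p under 0.05 over all genes tested. Log2 changes are 10 dpa over 0 dpa or 3 dpa over 2 dpa, ± SE. The SE is the absolute log2 change divided by the square root of the test's F value. It can be unreliable for changes near 0. The fit was tested on simulated data. Replicates are separate pools of fish. The p-values rest on the spread between libraries within stages, estimated over all 12 libraries together, in a model without replicate number. Of 722 list entries, 436 were matched by symbol, 149 by a capital symbol without its copy letter and 137 by neither. Alternatives were RLE normalisation, column totals, no filter, a replicate block, a fit of only the 2 stages compared, DESeq2 (version 1.42.0) and leaving out each library. A planned search of promoters could not be run, because no promoter sequences were at hand.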

Additional observations from a re-analysis of the deposited data

How the results depend on the processing

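No change that passed in either fit had the opposite sign under an alternative. Among the named genes, estimates that themselves passed in neither fit changed sign 53 times. Examples at 10 against 0 dpa are cfd (0.13, and -0.02 to -0.09 in 3 fits without 1 library) and cyld2 (0.60, and -1.20 without replicate 2 of 10 dpa). The number of members higher at 10 than at 0 dpa was 2, and it was 1 with RLE normalisation, 4 with only those stages in the fit, and 0 to 2 without 1 library. The number lower was 11, and it was 19 with DESeq2, 22 with only those stages in the fit, 17 with a replicate block and 5 to 16 without 1 library. Over all genes, the percentage lower was then 6.01% with DESeq2, 5.50% with only those stages and 5.23% with the replicate block. Without 1 library it was 0.636% to 4.93%. The median log2 change at 10 against 0 dpa was -0.31, and -0.22 with column totals, a scaling that moved the median of all genes by 0.09. The number higher at 3 than at 2 dpa was 27, and it was 2 of 94 members tested with only those stages in the fit, 28 with a replicate block and 10 to 38 without 1 library. Of all genes, 0.196% were higher with only those stages, 3.58% with the block and 0.947% to 6.47% without 1 library. The cause of these differences was not tested. With the block KANK1 was called higher at 10 than at 0 dpa (log2 change 0.76, and 0.71 without the block), and WNT11 was not called at 3 against 2 dpa. Same-numbered libraries are not stated to share an animal or a batch, but each number has a field of its own in the deposited column names (L01, L02 or L03), whose meaning is not given. After stage means were removed, the correlation across genes had a median of 0.139 over the 18 same-numbered pairs (-0.246 to 0.528, 11 of them over 0.1) and -0.0524 over the 36 other pairs. Of the 12 libraries, 9 correlated best with a library of their own number.

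Choosing again under other settings kept 135 members with TMM-scaled CPM, 128 with 0.5 added, 117 with 2 added, 134 with the minimum applied after 1 was added, and 140 of 150 with named genes left out first. Without 1 replicate number it kept 126, 121 and 118. Of the 140 members, 77 had a mean under 1 CPM at 2 dpa, so folds within the low stages rest on few counts.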

Other observations

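The circadian clock list holds 24 tested genes, of which 6 were high at 0 and 10 dpa, among them the member nr1d2a, and 4 were high at 0 dpa alone. Of all 33737 identifiers, of which 16612 were tested, 1060 were high at 0 and 10 dpa and 638 at 0 dpa alone. At 10 against 0 dpa 3 were lower in edgeR's test and 0 higher, with a median log2 change of -0.79, beside 0.04 for all genes tested. The 3 were hlfa (log2 change -2.03, adjusted p = 0.0014), BHLHE40 (-1.25, adjusted p = 0.0248) and CRY1 (ENSDARG00000045768, -0.70, adjusted p = 0.0457). At 3 against 2 dpa 0 passed in either direction in edgeR's test. The summed level of the 24 identifiers was 1699 to 1919 CPM over the 10 dpa libraries and 2645 to 3935 CPM over the 0 dpa libraries. The labels give no hour at which fins were taken.

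Of 22 tested genes on the blood vessel endothelium list, 0 were high at 0 and 10 dpa with low levels at 2 and 3 dpa. Low at 2 dpa alone were 7 of the 22, as were 256 of all 33737 identifiers. At 3 against 2 dpa 11 were higher and 0 lower, and the list's summed level was 365 to 496 CPM over the 3 dpa libraries and 172 to 260 CPM over the 2 dpa libraries. On the proliferation list 15 of 19 tested genes were high at 2, 3 and 10 dpa, as were 1173 of all 33737 identifiers, of which 16612 were tested.

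In RefSeq's gene order (assembly GRCz12tu), 102 members were placed by a unique name. DGAT2 and WNT11 lay 3 gene steps apart on chromosome 10, as did SLC20A1 and ccl19b, and no other placed pair lay within 10 steps. Places rest on names alone, and the capital symbols DGAT2, WNT11 and SLC20A1 do not say which zebrafish copy is meant.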
